A study of Mus musculus with 18 samples.

Results

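The immediate early effectors described here are 10 mouse genes that cells switch on within minutes of a stimulus and whose products are not classical transcription factors of the Fos, Jun or Egr kind. They are Ier2, Ier3 and Ier5, Btg1, Btg2 and Btg3, Csrnp1, Ppp1r15a, Plk2 and Plk3, and every probe set that the platform annotation gives one of these symbols was taken, 17 of the 45101 on the array. Of these, 15 reached the array's median signal on at least 3 arrays and were tested, with at least 1 for each of the 10 genes, among 27062 probe sets tested in all. A dim second probe set of Csrnp1 and one of Plk2 did not pass this filter. The Btg3 probe set is annotated to Gm7334 and Btg3 together, which cannot be told apart on it. Where a gene had several probe sets, the brightest stands for it unless another is named.

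Bone marrow of IL-10-/- mice, which lack the cytokine IL-10, was cultured for 7 days with CSF-1 from L-cell conditioned medium to give macrophages. They were treated without CSF-1 for 10, 20 or 30 min with IL-10 at 10 ng/ml together with LPS at 100 ng/ml, or with LPS at 100 ng/ml alone. LPS, a component of the bacterial outer membrane, signals through Toll-like receptor 4, and IL-10 restrains macrophages through STAT3. Each of the 6 groups had 3 arrays, 1 from each of 3 independent experiments done one after the other on mice matched for age and sex. All groups share the missing Il10 gene and all received LPS, and untreated cells were not analysed here, so a value at 10 min is not a resting level.

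Immediate early genes are transcribed without new protein synthesis, through signalling kinases and transcription factors that are already in the cell, and many of their messages are short-lived. IER3 prolongs ERK signalling and alters cell survival under stress, and its gene is a target of NF-kB. IER2 and IER5 are related nuclear proteins that bind the phosphatase PP2A. The BTG proteins restrain cell division and, as shown for BTG1 and BTG2, recruit the CCR4-NOT deadenylase to shorten the tails of messenger RNAs. PPP1R15A, also called GADD34, directs protein phosphatase 1 to the translation factor eIF2 alpha and so ends the integrated stress response. CSRNP1 is a nuclear cysteine- and serine-rich protein, and PLK2 and PLK3 are polo-like kinases first known as early growth response genes.

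Among the motifs searched, the cyclic AMP response element and its half-site were the most common in the promoters of the genes. RefSeq windows on GRCm38.p6, from 250 bases before to 50 bases from the annotated start, were at hand for 9 of the 10 genes, all but Ier2, with the most upstream start taken where there were several (Csrnp1 and Btg3). The cyclic AMP response element TGACGTCA, searched on both strands like every motif here, lay in 3 of the 9 windows, those of Btg2, Ppp1r15a and Plk2, against 1.79% of 32851 windows in the table. Its half-site TGACG, which the full element contains, lay in 6 of 9, against 20.8%. A kappa B motif, the NF-kB site, lay in 1 of 9, that of Ier3, against 4.51%. The STAT motif TTCNNNGAA lay in 1 of 9, that of Csrnp1, 38 bases into the transcript, against 8.3%. The letters TATAAA lay in 2 of 9, at -26 from the annotated start in Btg1 and 16 bases into the transcript in Ppp1r15a, against 13.6%. No window held the AP-1 motif TGANTCA (7.81% of all), a CArG box, the site of the serum response factor (1.63%), or the EGR motif GCGGGGGCG (2.91%). These are letter matches and not binding sites. The windows below are those of Ier3, Ppp1r15a and Btg2, whose signals rose, of Plk2, which shares the full element with Ppp1r15a and Btg2, and of Btg1, the paralogue of Btg2 that was not called. Capitals mark the motifs (TGACG reads CGTCA on the opposite strand).
Ier3 (chr17:35821463-35821762, plus strand): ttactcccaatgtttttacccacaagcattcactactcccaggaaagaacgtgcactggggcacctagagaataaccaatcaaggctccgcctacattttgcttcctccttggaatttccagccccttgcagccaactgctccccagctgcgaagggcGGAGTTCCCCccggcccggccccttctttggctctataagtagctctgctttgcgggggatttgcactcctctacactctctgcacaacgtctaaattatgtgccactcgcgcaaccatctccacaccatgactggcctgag
Ppp1r15a (chr7:45526219-45526518, minus strand): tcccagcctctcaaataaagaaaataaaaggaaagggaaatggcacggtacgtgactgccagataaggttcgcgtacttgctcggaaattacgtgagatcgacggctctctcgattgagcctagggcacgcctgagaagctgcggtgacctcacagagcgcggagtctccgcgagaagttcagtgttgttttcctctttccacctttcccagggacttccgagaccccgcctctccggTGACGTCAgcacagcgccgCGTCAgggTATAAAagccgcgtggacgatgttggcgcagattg
Btg2 (chr1:134079106-134079405, minus strand): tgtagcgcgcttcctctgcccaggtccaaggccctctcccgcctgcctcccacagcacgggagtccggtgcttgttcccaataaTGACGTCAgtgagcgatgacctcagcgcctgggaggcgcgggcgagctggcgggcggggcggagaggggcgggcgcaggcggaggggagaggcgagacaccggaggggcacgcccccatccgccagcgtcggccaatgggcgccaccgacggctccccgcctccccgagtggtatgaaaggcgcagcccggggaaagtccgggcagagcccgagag
Plk2 (chr13:110394794-110395093, plus strand): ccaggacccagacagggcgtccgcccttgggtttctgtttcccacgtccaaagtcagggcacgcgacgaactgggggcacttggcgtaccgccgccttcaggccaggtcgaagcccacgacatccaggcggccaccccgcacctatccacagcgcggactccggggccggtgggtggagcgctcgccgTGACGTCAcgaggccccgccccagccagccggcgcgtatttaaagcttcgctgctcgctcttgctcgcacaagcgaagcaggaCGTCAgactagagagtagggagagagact
Btg1 (chr10:96616751-96617050, plus strand): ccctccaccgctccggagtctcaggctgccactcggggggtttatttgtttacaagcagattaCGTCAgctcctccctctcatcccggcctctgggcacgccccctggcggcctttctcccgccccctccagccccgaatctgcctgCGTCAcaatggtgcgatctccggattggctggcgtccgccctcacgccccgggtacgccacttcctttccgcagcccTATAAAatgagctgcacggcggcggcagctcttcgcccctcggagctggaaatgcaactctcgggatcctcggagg

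The arrays carried the macrophage profile that the labels give. All 10 macrophage markers, such as Cd68 and Csf1r, were at or above the array's median on every array. So were 5 of 6 granulocyte and precursor genes, led by S100a8, and 3 of 5 stromal genes, led by Col1a2. None of 6 lymphocyte, 3 erythroid and 5 dendritic cell genes reached the median on every array. Summed macrophage signal was 147266 to 269804 per array, granulocyte signal 5030.1 to 12732, and stromal signal 1652 to 3829, and no marker was at 0. Their part in the results was not tested. The LPS 20 min arrays of experiments 2 and 3 stood apart, with lower quartiles of 38.7 and 34.1 against 21.9 to 31.1 on the other 16, so the differences of single genes that rest on them are also given without them. Arrays of 1 experiment deviated together. Each result is therefore given from a model that ignores the experiment and, where this changes a call, also from one that holds it as a block. A probe set is called at an adjusted p under 0.05 in limma, and fold changes are on the log2(signal + 16) scale. In these bulk samples fewer responding cells and less RNA per cell cannot be told apart.

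Under LPS plus IL-10, 4 of the 10 genes rose between 10 and 30 min once the experiment was a block: Ier3, Csrnp1, Ier2 and Ppp1r15a. Without the block 1 gene, Ier3, passed. The counts over the 15 probe sets were thus 4 with the block, where 0.225% of all tested probe sets were called, and 1 without it, where 0.0443% were. None fell in either model. All 10 genes had a positive change, with a median of 0.77, while 41.0% of the 12509 genes with a tested probe set did, with a median of -0.04. In 4 of the 10 genes the 30 min arrays all lay above the 10 min arrays, as in 1.71% of all genes.

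Under LPS alone the same comparison called Ier3 without the block (1 of 15 probe sets, 0.0185% of all), and Ier3, Ier2, Ppp1r15a and the dimmer probe set of Btg2 with it (4 of 15, 0.111% of all). Again none fell, and all 10 genes had a positive change, with a median of 0.60, against 44.6% of all genes and a median of -0.02. The 30 min arrays lay wholly above the 10 min arrays in 4 of 10 genes, against 1.97% of all genes. Averaged over the treatments, 30 against 10 min called 5 probe sets of 4 genes with the block (Ier3, Ier2, Ppp1r15a and both of Btg2, 0.436% of all) and Ier3 without it (0.0591% of all). Ier3, Ier2 and Ppp1r15a passed in this average with the block whichever experiment was left out. Both probe sets of Btg2 lost the call without experiment 1 (adjusted p = 0.520 and 0.0551) or experiment 2 (0.556 and 0.0788).

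**Figure D1:**
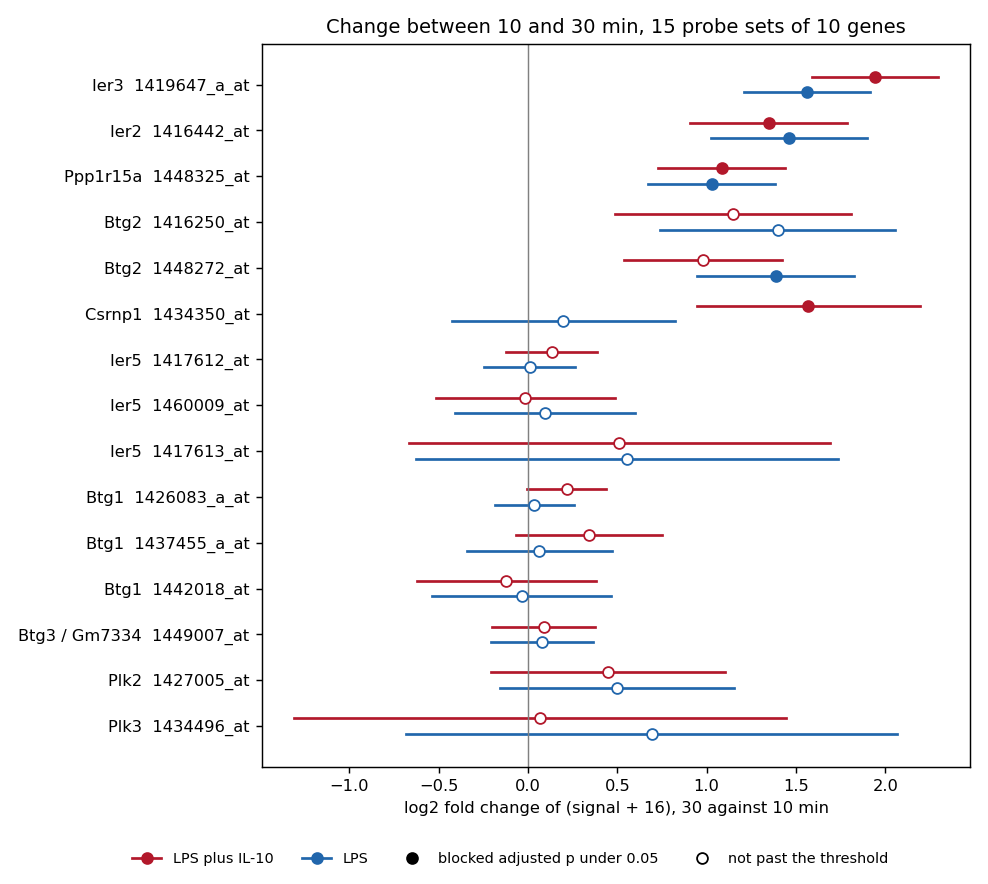
Log2 fold change of (signal + 16) at 30 against 10 min for the 15 tested probe sets, under LPS plus IL-10 (red, upper) and LPS (blue, lower), with 95% intervals from the model with the experiment as a block. Filled points, which passed an adjusted p of 0.05, belong to Ier3, Ier2 and Ppp1r15a under both treatments, to Csrnp1 under LPS plus IL-10 and to the dimmer Btg2 probe set under LPS.

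Ier3 had the largest log2 fold change of the 10 genes under both treatments. Under LPS plus IL-10 its signals were 3467, 2855 and 3033 at 10 min, 6585, 6210.2 and 6474 at 20 min, and 10550.3, 12684 and 12931 at 30 min (experiments 1, 2 and 3 in this order, here and below). Under LPS they were 3788, 2510.3 and 2358 at 10 min, 4204, 5477 and 4019.7 at 20 min, and 7109.6, 10288 and 7984 at 30 min. Within each treatment the 3 times did not overlap. The log2 fold change at 30 against 10 min was 1.94 under LPS plus IL-10 (SE 0.19, adjusted p = 0.000133) and 1.56 under LPS (SE 0.19, adjusted p = 0.00443), or 1.75 averaged (SE 0.13). Without experiment 2 or experiment 3 the unblocked call was lost under LPS plus IL-10 (1.84 and 1.87, adjusted p = 0.106 and 0.0709) and under LPS (1.33 and 1.47, adjusted p = 1.00 and 0.579), while with the block it stood whichever experiment was left out. It was also lost under LPS when the 10 and 30 min LPS arrays were fitted alone (adjusted p = 0.521). The kappa B motif in the Ier3 window printed above is a letter match, and nothing was measured there.

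Ier3 was also the one gene of the 10 called at 20 against 10 min. Under LPS plus IL-10 it rose by 1.04 with the block (SE 0.17, adjusted p = 0.0229; 1 of 15 probe sets, 0.0333% of all), and in each experiment by 0.92 to 1.12. Without the block its adjusted p was 0.247 and 0 of 15 passed (0.0111% of all; 1 member probe set had an unadjusted p under 0.05). The blocked call was lost when any 1 experiment was left out (adjusted p = 0.109 without experiment 1, 0.727 without experiment 2 and 0.167 without experiment 3). Under LPS its change by 20 min was 0.68 (blocked adjusted p = 0.331). Without the 2 arrays that stood apart, which leaves experiment 1 alone at 20 min, it was 0.57 (0.53 with the block). These values still use the 10 min arrays of all 3 experiments. Within the experiments the change was 0.15, 1.12 and 0.77, so in experiment 1 it was small. In that comparison limma called 0 of 15 member probe sets without the block (0% of all; 1 at an unadjusted p under 0.05) and 0 with it (0.0148% of all; 2 at an unadjusted p under 0.05).

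Ier2 had signals of 1020.4, 623 and 591 at 10 min, 1571, 1598 and 579.9 at 20 min, and 3507, 1689 and 1086 at 30 min under LPS plus IL-10. Under LPS it had 1054, 661 and 665 at 10 min, 1396, 1083 and 600.4 at 20 min, and 3477, 2011 and 1437 at 30 min. Experiment 3 was flat to 20 min under both treatments and higher at 30 min, and the 10 and 30 min arrays did not overlap. The change by 30 min under LPS plus IL-10 was 1.35 (blocked SE 0.21, blocked adjusted p = 0.00401) and under LPS 1.46 (blocked SE 0.21, blocked adjusted p = 0.00298), with 3 of 3 experiments higher in each. Without the block neither passed (adjusted p = 1.00 in both). With the block, both lost the call without experiment 1 (adjusted p = 0.586 under LPS plus IL-10 and 0.407 under LPS) or experiment 2 (0.0551 and 0.0684).

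Ppp1r15a had 868, 524 and 648 at 10 min, 950.3, 918 and 678 at 20 min, and 1915, 1534 and 991 at 30 min under LPS plus IL-10. Under LPS it had 882, 774 and 562 at 10 min, 1246, 797 and 712 at 20 min, and 1469.7, 1816 and 1258 at 30 min. The 30 min arrays lay above the 10 min arrays under both treatments, and under LPS plus IL-10 the change was 0.33 to 20 min and 0.76 from 20 to 30 min. By 30 min it was 1.08 (blocked SE 0.17, blocked adjusted p = 0.00411) with IL-10 and 1.03 with LPS alone (blocked SE 0.17, blocked adjusted p = 0.0114), and neither passed without the block (0.816 and 1.00). The blocked calls were lost without experiment 1 (0.214 under LPS plus IL-10 and 0.164 under LPS), without experiment 2 (0.212 and 0.235) and, under LPS only, without experiment 3 (0.102, against 0.00444 under LPS plus IL-10).

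Btg2 was measured by 2 probe sets that moved together (Pearson's r of 0.88 over the 18 arrays after each experiment's mean was subtracted). The brighter one had 420.4, 365 and 1049 at 10 min, 653, 523 and 574 at 20 min, and 1519, 1276 and 953 at 30 min under LPS plus IL-10. Under LPS it had 503, 326 and 1019.5 at 10 min, 690.1, 736 and 685 at 20 min, and 1285, 1652 and 1531 at 30 min. Experiment 3 stood out at 10 min, where it was the highest of its group under both treatments, and its own change by 30 min was -0.14 under LPS plus IL-10 and 0.58 under LPS. Over the 3 experiments the change was 1.15 under LPS plus IL-10 and 1.40 under LPS, and neither passed (blocked adjusted p = 0.282 and 0.180).

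The dimmer Btg2 probe set had 347, 434 and 726 at 10 min, 398, 638 and 647 at 20 min, and 897, 1033 and 955 at 30 min under LPS plus IL-10. Under LPS it had 217, 443 and 649.8 at 10 min, 377, 626 and 925 at 20 min, and 752, 1417 and 1142 at 30 min. The 30 min arrays lay above the 10 min arrays under both treatments. With IL-10 its change was 0.98 (blocked adjusted p = 0.0758) and with LPS alone 1.39 (blocked SE 0.21, blocked adjusted p = 0.00495, 1.00 without the block). The LPS call was lost without experiment 1 (0.296) or experiment 2 (0.534), and without experiment 3 both probe sets passed under both treatments with the block (adjusted p of 0.00586 or less).

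Csrnp1 was called under LPS plus IL-10 and not under LPS. Under LPS plus IL-10 it had 199.8, 85.6 and 175 at 10 min, 282, 202 and 213 at 20 min, and 638, 379.6 and 406 at 30 min. Under LPS it had 289, 274 and 139.9 at 10 min, 483, 190.0 and 284 at 20 min, and 399, 319 and 134 at 30 min. The 3 times did not overlap under LPS plus IL-10 and overlapped under LPS. By 30 min it was higher by 1.57 with IL-10 (blocked SE 0.30, blocked adjusted p = 0.0251, 0.845 without the block), higher in 3 of 3 experiments, and 0.20 under LPS (blocked 95% interval -0.42 to 0.82). The blocked call was lost without experiment 1 (adjusted p = 0.874) or experiment 2 (0.215). The difference between these changes was 1.37 (1.16, 1.75 and 1.20 in the experiments, blocked interval 0.49 to 2.25), and it did not pass over all probe sets (adjusted p = 1.00 with and without the block).

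**Figure D2:**
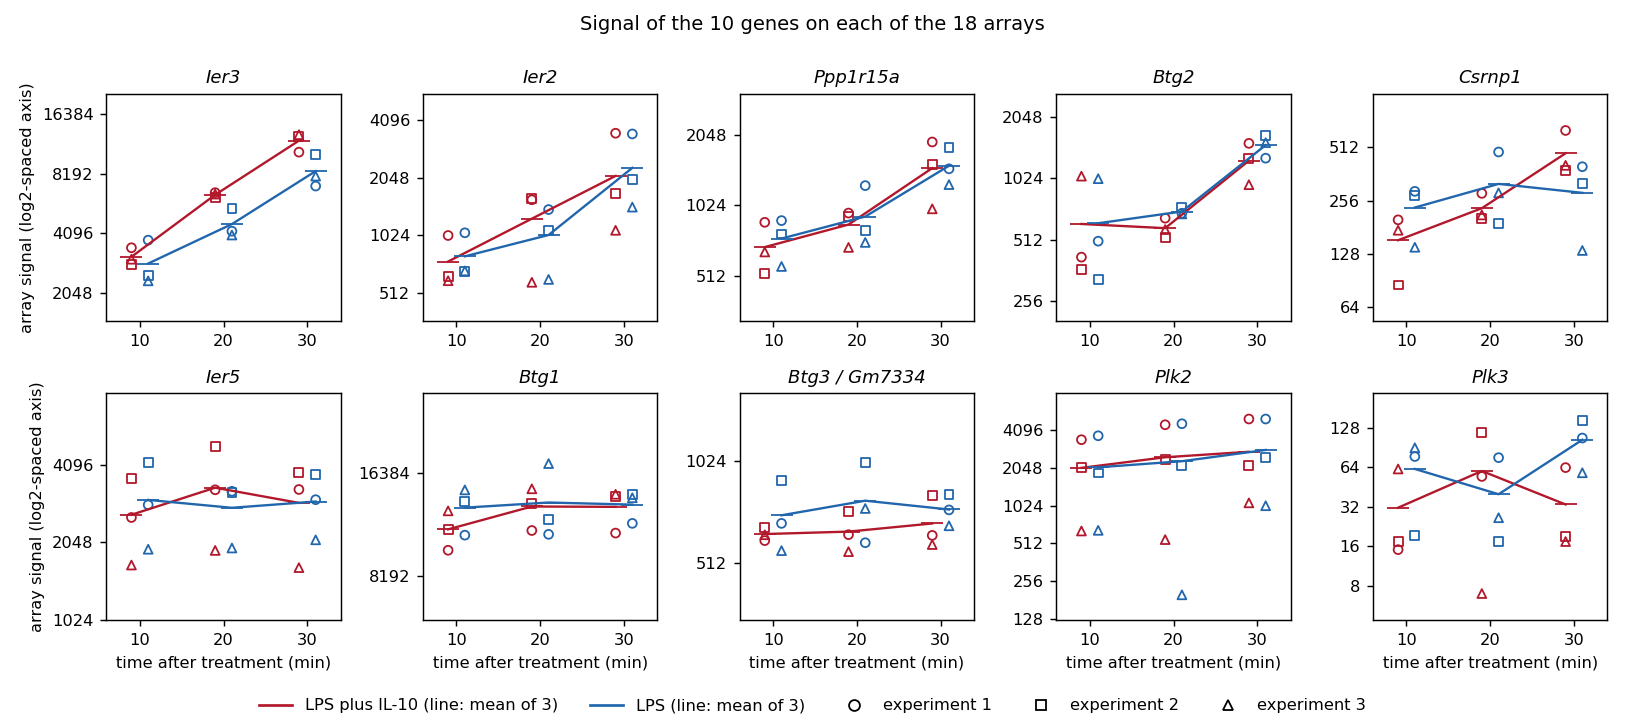
Array signal (log2-spaced axis) of the 10 genes at 10, 20 and 30 min under LPS plus IL-10 (red, left of each time) and LPS (blue, right). Each point is 1 array, its shape the experiment, and lines join the means of 3. Ier3 climbs at every step under both treatments and ends between 10550.3 and 12931 under LPS plus IL-10, against 7109.6 to 10288 under LPS.

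The other 5 genes were not called in any comparison, in either model. Ier5, the related gene of Ier2, ranged from 1636 to 4820.1 with a change by 30 min of 0.13 under LPS plus IL-10 and 0.01 under LPS (blocked intervals -0.12 to 0.39 and -0.24 to 0.26). Its 3 probe sets did not follow each other (r of -0.31 to 0.36), and the dimmer ones had changes of -0.02 and 0.51 under LPS plus IL-10, and of 0.10 and 0.55 under LPS. Btg1, the paralogue of Btg2, ranged from 9754 to 17434 with changes of 0.22 under LPS plus IL-10 and 0.04 under LPS (blocked intervals -0.00 to 0.43 and -0.18 to 0.25). Its second probe set followed the first (r of 0.77) and the dimmest did not (0.10). The probe set of Btg3 and Gm7334 ranged from 552 to 1018 with changes of 0.09 and 0.08 (blocked intervals -0.20 to 0.37 and -0.21 to 0.36). With all experiments used, no gene of the BTG family was called by 30 min under LPS plus IL-10. Btg2 was then called only with the block, on its dimmer probe set under LPS and on both averaged over the treatments. Btg1 and the Btg3 probe set were not called there, a difference between genes that was not tested. Without experiment 3, the brighter Btg2 probe set was called in the average without the block too.

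Of the polo-like kinases, Plk2 had changes of 0.45 under LPS plus IL-10 and 0.50 under LPS (blocked intervals -0.21 to 1.10 and -0.15 to 1.15), higher in 3 of 3 experiments under each. Averaged over the treatments, its change was 0.47 (blocked interval 0.01 to 0.94), which was not called (blocked adjusted p = 0.686 in limma). Its promoter window holds the same TGACGTCA as those of Ppp1r15a and Btg2, which were called. Plk3 was dim, with signals from 7.0 to 145.4 that reached the array's median on 4 arrays. Its changes of 0.07 and 0.69 had blocked intervals of -1.31 to 1.44 and -0.68 to 2.07, so these arrays bound its course only loosely.

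The steps between the times are given as a description, with no test between genes. They are those under LPS plus IL-10, which do not use the 2 arrays that stood apart. To 20 min and then from 20 to 30 min, Ier3 gained 1.04 and 0.90, so its mean steps were near even. Ier2 gained 0.64 and 0.71 on average, but its experiments differed in course. Its change to 20 min was 0.61, 1.34 and -0.03 in experiments 1, 2 and 3, and its change by 30 min 1.77, 1.41 and 0.86. The steps were 0.09 and 1.06 for Btg2 (0.19 and 0.79 on its dimmer probe set) and 0.61 and 0.96 for Csrnp1.

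Adding IL-10 to LPS called none of the 10 genes at any time. With limma, 0 of 15 passed at 10 min in either model (0% of all in both), and none of them had an unadjusted p under 0.05. At 20 min 0 passed (0.00739% of all, or 0.0185% with the block), and 1 in each model had an unadjusted p under 0.05. At 30 min 0 passed (0.0111% of all, or 0.0443% with the block), and an unadjusted p under 0.05 was found for 1, or 2 with the block. For the change of the IL-10 difference between 10 and 30 min 0 passed (0.0037% of all, or 0.0185% with the block), and 1 in each model had an unadjusted p under 0.05. The median difference of the 10 genes was -0.14 at 10 min and -0.07 at 30 min, and over all genes 0.01 and -0.00.

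The probe sets with an unadjusted p under 0.05 at 20 and 30 min were those of Ier3 and, with the block at 30 min, Csrnp1. At 10 min Ier3 differed by 0.14 (blocked interval -0.21 to 0.49). At 20 and 30 min every LPS plus IL-10 array lay above every LPS array, as in 2% and 1.68% of all genes. Its mean signal was 6423 ± 192 under LPS plus IL-10 and 4567 ± 793 under LPS at 20 min, and 12055 ± 1309 and 8460.2 ± 1642 at 30 min (SD, n = 3 each). The log2 difference was 0.50 at 20 min (0.65, 0.18 and 0.69 in the experiments, blocked adjusted p = 0.591) and 0.52 at 30 min (0.57, 0.30 and 0.69, blocked adjusted p = 1.00), so it was positive in 3 of 3 experiments at both times without passing over all probe sets. Its blocked 95% interval at 30 min was 0.17 to 0.87. Without the 2 arrays that stood apart, which leaves LPS at 20 min with experiment 1 alone, the Ier3 difference at 20 min was 0.61 (0.65 with the block). Csrnp1 was lower with IL-10 at 10 min (-0.57, with experiment 2 at -1.51) and higher at 30 min (0.80, with 0.66, 0.24 and 1.49 in the experiments), neither called (blocked adjusted p = 1.00 in both). The summed signal of 5 dendritic cell markers at 30 min was 146 to 198.5 under LPS plus IL-10 and 206.6 to 270.9 under LPS. None of these markers was at the array's median on every array. At 20 min the summed macrophage signal was 167113 to 177813 under LPS plus IL-10 and 186183 to 269804 under LPS. The LPS values there include the 2 arrays that stood apart. The part of either sum in these differences was not tested.

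Of the 10 genes, 2 were higher with IL-10 at 10 min, 5 at 20 min and 2 at 30 min. Over all genes the shares were 53.7%, 50.3% and 49.0%. The 2 at 30 min were Ier3 and Csrnp1, and the remaining genes were all lower with IL-10 at that time, none of them called. Ier2, Ppp1r15a and Btg2 differed by -0.21, -0.07 and -0.27 at 30 min, with blocked intervals of -0.65 to 0.23, -0.42 to 0.29 and -0.93 to 0.39. Ier5 and Btg1 differed by -0.07 and -0.03, with blocked intervals of -0.32 to 0.19 and -0.25 to 0.19. At 20 min every LPS plus IL-10 array lay below every LPS array for Btg2 (-0.27, not called), as in 2.53% of all genes. Without the 2 arrays that stood apart, which leaves LPS at 20 min with experiment 1 alone, the difference with the block was -0.29. On the dimmer Btg2 probe set it was -0.13 with all arrays and 0.06 without these, again with the block. Plk2 differed by -0.04 at 30 min and by 0.51 at 20 min, where the difference was 1.40 in experiment 3 against -0.03 and 0.17 in the others. That value rests on the LPS 20 min array of experiment 3, whose Plk2 signal was 199.0, against 549.7 under LPS plus IL-10, and it is 1 of the arrays that stood apart. Without both of these arrays the difference with the block was -0.19. Plk3 was lower with IL-10 at 30 min in 3 of 3 experiments (-1.33, blocked interval -2.70 to 0.05), at signals of 63.5, 19.0 and 17.4 under LPS plus IL-10 and 106.6, 145.4 and 58.0 under LPS. So was the probe set of Btg3 and Gm7334, at 616.9, 811.3 and 579.5 under LPS plus IL-10 and 734.4, 816 and 658.8 under LPS. At 20 min this probe set differed by -0.27 (blocked interval -0.56 to 0.02), with 0.08, -0.48 and -0.42 in the experiments. The values of experiments 2 and 3 rest on the 2 LPS arrays that stood apart, and that of experiment 1 does not.

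**Figure D3:**
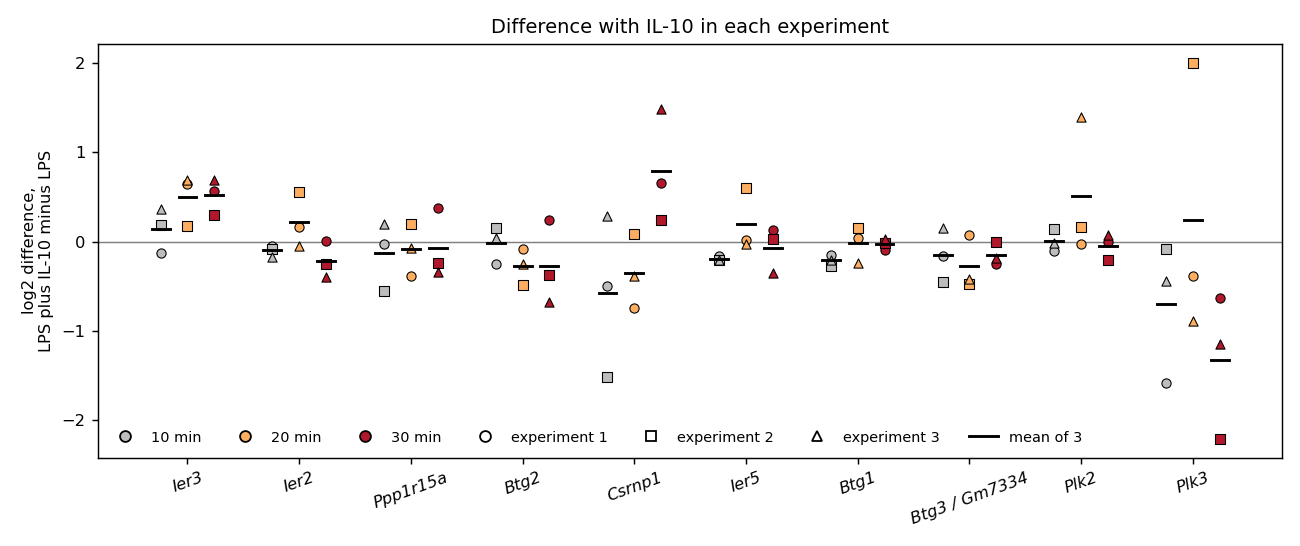
Log2 difference, LPS plus IL-10 minus LPS, for each gene at 10, 20 and 30 min, with 1 point per experiment and a bar at the mean of 3. For Ier3 all points at 20 and 30 min are above 0, between 0.18 and 0.69, and for Csrnp1 the mean goes from -0.57 at 10 min to 0.80 at 30 min.

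The genes differed in how far the 3 experiments lay apart. The mean log2 signal of Ier3 differed by 0.12 between the highest and the lowest experiment, and 5.55% of genes had a smaller range. Plk2 had a range of 2.80, larger than that of 99.8% of genes, and its experiments did not overlap: 3452 to 5051 in experiment 1, 1871 to 2502 in experiment 2 and 199.0 to 1081 in experiment 3. Non-overlapping experiments were found for 1 of the 10 genes, against 3.72% of all genes, and the median range of all genes was 0.47. Ier2 had a range of 1.16 and Ier5 one of 1.05, highest in experiment 1 for Ier2 and in experiment 2 for Ier5. The labels give the experiments no date or other difference, so what set them apart was not tested.

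**Figure D4:**
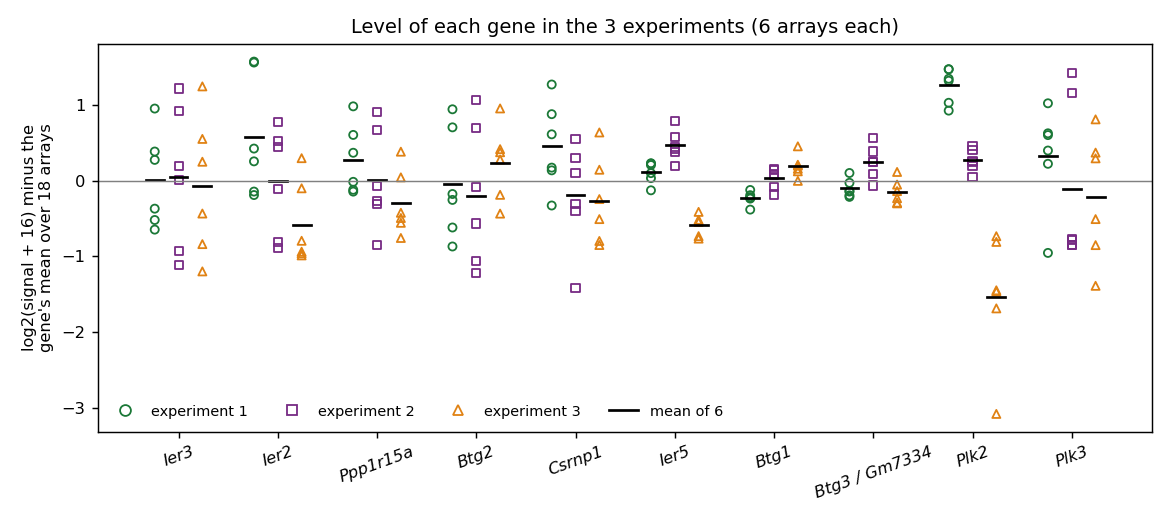
Log2(signal + 16) of each gene minus its mean over the 18 arrays, split by experiment (6 arrays each, bar at the mean). Plk2 is highest in experiment 1 and lowest in experiment 3, with a range of 2.80, while the means of Ier3 lie within 0.12.

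With each experiment's mean removed, Ier3, Ier2, Ppp1r15a and Btg2 varied together over the 18 arrays, which share the time course. The Pearson correlation was 0.88 for Ier2 and Ppp1r15a, 0.87 for Ier2 and Btg2, 0.85 for Btg2 and Ppp1r15a, 0.83 for Ier3 and Ppp1r15a, and 0.82 for Ier2 and Ier3. Csrnp1, which was called under LPS plus IL-10, had lower values, 0.68 with Ppp1r15a, 0.62 with Ier3, 0.50 with Ier2 and 0.46 with Btg2. Pairs with a gene that was not called reached 0.63 for Btg1 and Csrnp1 and 0.53 for Ier2 and Plk2. Over the 45 pairs among the 10 genes the median was 0.35, and 42 were above 0. The lowest was -0.39, for Btg1 and Plk2. Pairs among other genes were not computed, so whether such values are common on these arrays was not tested.

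**Figure D5:**
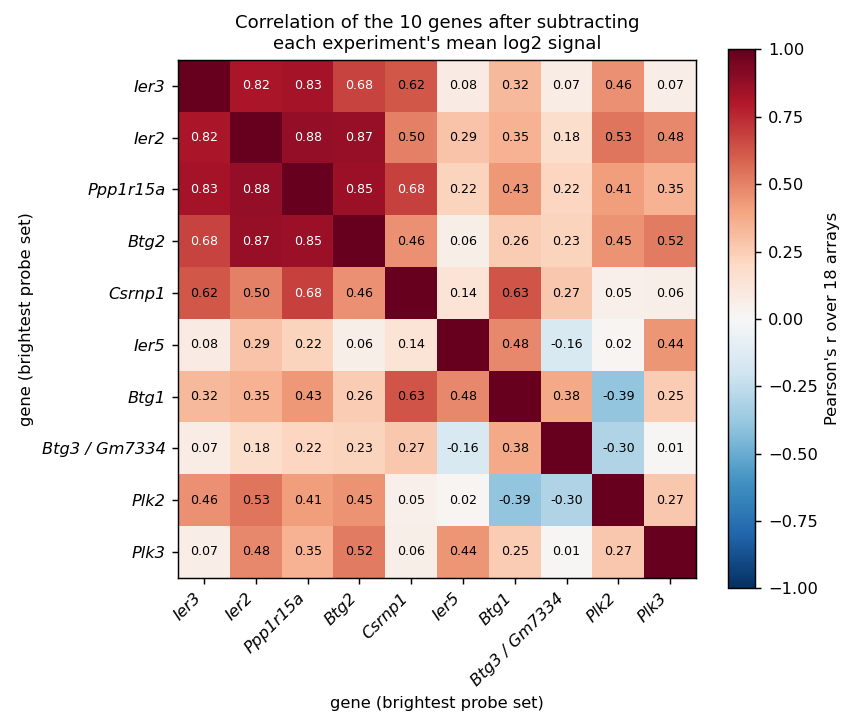
Pearson correlation between the 10 genes over 18 arrays after each experiment's mean log2 signal was subtracted. Ier3, Ier2, Ppp1r15a and Btg2 form a block with values from 0.68 to 0.88, and the lowest value is -0.39.

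By the same measure over 18 arrays, the genes outside the 10 most like each were as follows. For Ier3 they were Zfp36, which encodes the messenger RNA destabilising protein tristetraprolin (r of 0.98), Ccl3 (0.95), Ccl7 (0.94), Pde4b (0.92) and Gm6377 (0.90). For Ier2 they were Nfkbiz, an atypical I kappa B gene (0.92), Tnfaip3, the gene of the NF-kB inhibitor A20 (0.92), Pde4b (0.91), Cxcl1 (0.88) and Gpr84 (0.87). For Btg2 they were Gpr84 (0.96), Tnfaip3 (0.95), Cd69 (0.90), Traf1 (0.89) and Tlr2 (0.88), and for Ppp1r15a Pde4b, Tnfaip3, Il1b, Ptgs2 and Nfkbiz (0.91 to 0.92). For Csrnp1 the likeness was lower, with Cxcl3 (0.79), Pim1, Adgb, Fosl2 and Etv3 (0.77 to 0.78). These 5 genes were the closest of 12500 for each, so high values are partly a matter of choosing.

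Genes of related function were counted in the same comparisons. Of 21 measured immediate early transcription factors, 18 were higher at 30 than at 10 min averaged over the treatments (median 0.33, against -0.03 over all genes), and 4 were called with the block (0.436% of all probe sets) and none without it (0.0591%). These were Egr1 (2.02, blocked adjusted p = 0.00604), Junb (0.86, 0.00493), Fos (0.74, 0.00249) and Jun (0.66, 0.00277), and in no other comparison was a gene of this list called.

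In the other 5 lists no gene was called in any comparison, in either model. For 30 against 10 min averaged over the treatments, 4 of 8 measured relatives of the 10 genes were higher (median -0.02, with Ier5l at 0.30 and Btg4 at -0.20). Of 14 p53 target genes, a class to which Btg2 and Plk2 are known to belong, 4 were higher (median -0.03), with Gadd45a at 0.91 and Pmaip1 at 0.35. Of 15 genes of the integrated stress response, which PPP1R15A ends, 7 were higher (median -0.01), with Cebpb at 0.30 and Trib3 at 0.18. Of 12 CCR4-NOT and BTG partner genes 6 were higher (median -0.02), with Cnot8 at 0.13 and Cnot10 at -0.14. Of 11 ERK, PP2A and HSF1 partners of the IER proteins 5 were higher (median -0.00), with Ppp2cb at 0.20 and Hspa1b at 0.11. Over all genes 41.0% were higher in this comparison.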

How the data were processed

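The authors deposited linear intensities, 1 value per probe set and array. GCOS 1.4 is named in the submitters' processing notes. Its algorithm is not stated there, and no detection calls were used. On every array the mean after trimming 2% at each end was 499 to 500.2, so a change of total RNA is invisible. Per the labels' protocols, biotin-labelled cRNA was made from Trizol-extracted total RNA.

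Control probe sets (64) were left out. Signals became log2(signal + 16), which understates changes of dim probe sets. Probe sets that reached the median of their array on 3 or more arrays were tested with limma 3.58.1 in R 4.3.3 (intensity trend, 6 group coefficients, all 18 arrays, 12 residual degrees of freedom, two-sided, Benjamini-Hochberg over all 27062), in 9 comparisons. The number of arrays limits the precision. Same-numbered arrays deviated together (correlations of 0.20 to 0.64 in 45 pairs, against -0.47 to 0.07 in 90 others), and the labels make each number an independent experiment, so a paired fit, the replicate block with 10 residual degrees of freedom, stands beside results whose call it changes. The code was tested on simulated data.

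All 10 genes are named, and of each gene list the called genes or the 2 that changed most. The genes, lists, tests and the arrays called apart were chosen with earlier results of these data known. Symbols are those of GEO's platform annotation and may be outdated. Promoters are from RefSeq.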

Additional observations from a re-analysis of the deposited data

How the results depend on the processing

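The count of called member probe sets depended on the experiment term and on which experiments were used. With the replicate block it was 4, against 1 without it, for 30 against 10 min under LPS plus IL-10 and again under LPS, 5 against 1 averaged over the treatments, and 1 against 0 for 20 against 10 min under LPS plus IL-10. The 2 LPS 20 min arrays left out with the block gave the same 4, 4, 5 and 1. Leaving out 1 experiment at a time, with or without the block, gave 0 to 6 under LPS plus IL-10, 0 to 4 under LPS and 1 to 6 averaged, the highest without experiment 3, and 0 for 20 against 10 min under LPS plus IL-10. A filter at the 75th percentile gave 2 averaged, adding Ppp1r15a, with fewer probe sets tested. Fitting only the arrays compared gave 0 under LPS, with fewer samples. For LPS at 20 against 10 min, the 3 IL-10 comparisons and the change of the IL-10 difference the count was 0 under every alternative run. Of 2133 values of single probe sets none turned its direction while called, 5 lost a call and 41 gained one. Another 14, uncalled, turned direction with a shift of at least the spread between replicates. Of these 14, 10 came when the 2 LPS 20 min arrays were left out without the block. Smaller turns of uncalled values, and shifts with neither a turn nor a changed call, were not counted. Quantile normalization and pseudocounts of 1 and 64 changed no call. With 3 arrays per group and no detection calls, dim probe sets such as that of Plk3 have no more than wide bounds.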
